A study of Mus musculus with 12 samples.

Results

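Macrophages are abundant immune cells of adipose tissue, and 10 genes that mark them or their recruitment were followed here through the authors' comparisons of the KO effect between the sexes, in white fat and in brown fat. They were chosen by name as a list: the general macrophage genes Adgre1, Cd68, Lyz2 and Csf1r, the markers of resident macrophages Mrc1 and Cd163, the markers of lipid-associated macrophages Trem2 and Itgax, and the recruitment pair Ccl2 and Ccr2. All 10 were found by symbol in both tables, among 16738 genes in inguinal white fat (iWAT), a depot under the skin, and 15363 genes in brown fat (BAT).

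The study sequenced RNA from white fat of C57BL/6 mice on a high-fat diet at room temperature, which all groups shared. Its 12 labelled libraries form 4 groups of 3, which are KO females, KO males, WT females and WT males. KO mice carry a deletion of NDUFS4, an accessory subunit of respiratory complex I, that is named for adipocytes. The Cre driver, the age of the mice and the number of animals in a library are not stated in the labels, so p-values measure the spread between libraries, which may be technical. The tables hold 1 contrast each, the KO effect in females minus the KO effect in males, called the interaction below. It is on the log2 scale, so a value of -1 means that the ratio of KO to WT was lower in females than in males by 1 log2 unit. Which sex comes first is known only from the names of the tables. KO against WT within a sex and the values of single libraries were not analysed here, and sequencing depth is unknown. Ndufs4 in each library was therefore not read, and the genotype labels were not checked against it. The brown fat libraries are not among the labelled samples, and their groups are known only from the table's name.

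Fat holds resident macrophages, which lie along vessels and between adipocytes and carry scavenger receptors, and it recruits monocytes from blood when it expands. Monocytes bearing the receptor CCR2 follow its ligand CCL2 into the tissue, and some become lipid-associated macrophages, which gather around dying adipocytes and take up their lipid. Growth and survival of the lineage depend largely on the receptor CSF1R. Some of these genes are not confined to macrophages: Itgax also marks dendritic cells, Lyz2 is also used by neutrophils, Ccr2 by some T cells, and Ccl2 is also made by adipocytes and fibroblasts.

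All 10 macrophage genes were listed with a level in both depots. The authors' deposited table for white fat gave mean log2 expression over the libraries of 7.45 for Mrc1, 5.96 for Cd163, 6.27 for Csf1r and 8.22 for Lyz2. Adgre1, which encodes the surface antigen F4/80, had 4.90 in the authors' deposited table for white fat, and Cd68, a lysosomal glycoprotein of phagocytes, had 4.44. For Trem2, the lipid receptor of lipid-associated macrophages, the authors' deposited table for white fat gave 2.54, and for Itgax, the integrin chain CD11c, it gave 4.10. For white fat, the recruitment genes Ccr2 and Ccl2 stood at 7.01 and 3.32, per the authors' deposited table. Whether these values are scaled by gene length is not stated, so they are not used to rank the genes against each other.

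In brown fat the same genes were listed at lower values. The authors' deposited table for brown fat gave mean log2 expression of 4.98 for Mrc1, 3.77 for Cd163, 4.48 for Csf1r and 6.11 for Lyz2. Adgre1 had 2.81, Cd68 had 2.0 and Ccr2 had 3.52 in the authors' deposited table for brown fat. At the bottom of that scale, the authors' deposited table for brown fat gave Itgax 0.74, Trem2 -0.09 and Ccl2 -0.17, where the lowest value of any gene in the table was -0.55. The value was higher in white than in brown fat for 10 of 10 members, by 1.80 to 3.49 log2 units with a median of 2.45, while the median gap over the 14502 genes in both tables was 0.60. Gaps of this size were also found outside the macrophage genes, though not for every gene. In white minus brown fat, Col1a1 of fibroblasts was at 2.87, Lck of T cells at 3.25 and Lep of adipocytes at 4.59. Plin1 of adipocytes was at -0.09 and the endothelial gene Kdr at -0.60. All of these other genes were named after their values were seen. How either table was normalised is not stated, so the gaps are given without a test. In bulk tissue, fewer cells of a type and less RNA per cell cannot be told apart.

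**Figure D1:**
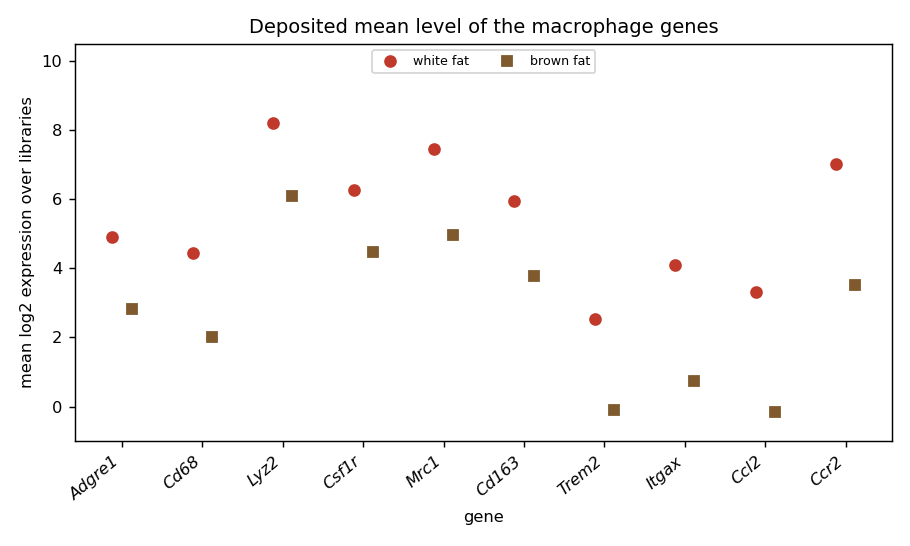
Mean log2 expression over the libraries of each depot (vertical axis, as deposited) for the 10 macrophage genes (horizontal axis), with circles for white fat and squares for brown fat. All 10 circles lie above their squares, and Trem2, Itgax and Ccl2 are the 3 genes that lie below 1 in brown fat.

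Did the loss of NDUFS4 in adipocytes act on these genes differently in females and males? In white fat none of the 10 passed an adjusted p of 0.05 in the authors' limma test, where 4.75% of all genes did. At an unadjusted p of 0.05 the count was again 0 of 10, against 24.5% of all genes. Adjusted p-values of the members ran between 0.217 and 0.961. The median interaction of the 10 was -0.10, with 7 below 0 and 3 above, and the median of all genes was 0.13. Taken against that median, 9 of 10 members were below it.

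Among the general macrophage genes, the 3 with the lowest interactions in white fat were Cd68, Lyz2 and Csf1r. Lyz2 (ENSMUSG00000069516.9, chromosome 10, 117113236 to 117118226, minus strand, GRCm39), which encodes a lysozyme, was at -1.02 in the authors' deposited table, with a standard error of 0.49 (the value after each ± below) and a limma adjusted p of 0.217. Its 95% interval ran from -2.09 to 0.04 and so reached 0. Cd68 (ENSMUSG00000018774.14, chromosome 11, 69555039 to 69556979, minus strand) was at -1.08 ± 0.63 (limma adjusted p = 0.305) per the authors' deposited table. For Csf1r (ENSMUSG00000024621.17, chromosome 18, 61233670 to 61265221, plus strand), the authors' deposited table gave -0.61 ± 0.40 and an adjusted p of 0.359 from limma. Adgre1 (ENSMUSG00000004730.16, chromosome 17, 57665691 to 57790527, plus strand) lay near 0, at -0.10 ± 0.44 (limma adjusted p = 0.911) per the authors' deposited table. The intervals of the 4 genes overlap, and their differences from each other were not tested, since they come from the same libraries.

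Reads of Lyz2 can be shared with its close paralog Lyz1, and the labels do not say how the authors' counting split them. Lyz1 itself was at -1.29 ± 0.64 (limma adjusted p = 0.231) per the authors' deposited table for white fat, so the lysozyme pair had interactions of like size. Csf1r overlaps Hmgxb3, a gene on the opposite strand, and the labels do not state whether counting used strand. Hmgxb3 was at -0.41 ± 0.34 (limma adjusted p = 0.474) per the authors' deposited table for white fat. In brown fat Lyz1 was at 0.44 ± 0.95 and Hmgxb3 at 0.13 ± 0.58 per the authors' deposited table (limma adjusted p = 0.977 and 0.985). Lyz2 and Csf1r lay on the other side of 0 there, at -0.59 and -1.18.

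Resident markers lay closest to 0 and had the narrowest intervals. Mrc1 (ENSMUSG00000026712.4, chromosome 2, 14234203 to 14336868, plus strand), the mannose receptor CD206, was at 0.04 ± 0.33 (limma adjusted p = 0.954) per the authors' deposited table for white fat. Its 95% interval of -0.67 to 0.75 corresponds to a KO to WT ratio in females of between 0.627 and 1.68 times that in males. For Cd163 (ENSMUSG00000008845.10, chromosome 6, 124281615 to 124307486, plus strand), the scavenger receptor for haemoglobin bound to haptoglobin, the authors' deposited table gave -0.04 ± 0.39 and an adjusted p of 0.961 from limma. The interval of Cd163 was -0.88 to 0.80, or 0.543 to 1.74 times. These were the only 2 of the 10 members whose interval stayed within 1 log2 unit of 0. Against the median of all genes Mrc1 was at -0.09 and Cd163 at -0.17, so the sign of Mrc1 depended on that reference.

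The lipid-associated markers were measured with wide errors in white fat. Trem2 (ENSMUSG00000023992.15, chromosome 17, 48653429 to 48661175, plus strand) was at 0.40 ± 1.11 (limma adjusted p = 0.847) per the authors' deposited table. Its interval of -1.98 to 2.79 allows a female ratio between 0.253 and 6.93 times the male one. Itgax (ENSMUSG00000030789.10, chromosome 7, 127728719 to 127749829, plus strand) was at -0.14 ± 0.65 (limma adjusted p = 0.914) per the authors' deposited table. Its interval was -1.54 to 1.25. Itgam, which encodes the related integrin chain CD11b of myeloid cells and was looked up as a paralog of Itgax, was at 0.36 ± 0.28 (limma adjusted p = 0.438) per the authors' deposited table for white fat. For the lipid-associated pair the median interaction was 0.13 and for the resident pair -0.00047, a gap smaller than the standard error of any of the 4 genes.

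The recruitment pair also lay near 0. Ccr2 (ENSMUSG00000049103.15, chromosome 9, 123901987 to 123913594, plus strand), the receptor, was at 0.10 ± 0.46 (limma adjusted p = 0.911) per the authors' deposited table for white fat, and against the median of all genes it was at -0.03. For Ccl2 (ENSMUSG00000035385.6, chromosome 11, 81926397 to 81928279, plus strand), its ligand, the authors' deposited table gave -0.09 ± 0.60 and an adjusted p of 0.939 from limma. Intervals were -0.89 to 1.10 for Ccr2 and -1.38 to 1.19 for Ccl2.

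The size of interaction that could have passed differed between these genes. With the smallest t-statistic of any passing gene, 3.74, a member needed an interaction of 1.23 (Mrc1) to 4.14 (Trem2) in size to pass in white fat. The standard errors of the 10 members were larger than those of most genes of like level, taken as genes within 0.5 log2 units of the member's mean expression. Lyz2 had a larger error than 93.5% of 557 such genes, Ccr2 than 92.8% of 1429, Mrc1 than 75.2% of 1057 and Ccl2 than 66.7% of 2024. A standard error in this fit grows with the spread of a gene between libraries of 1 group.

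**Figure D2:**
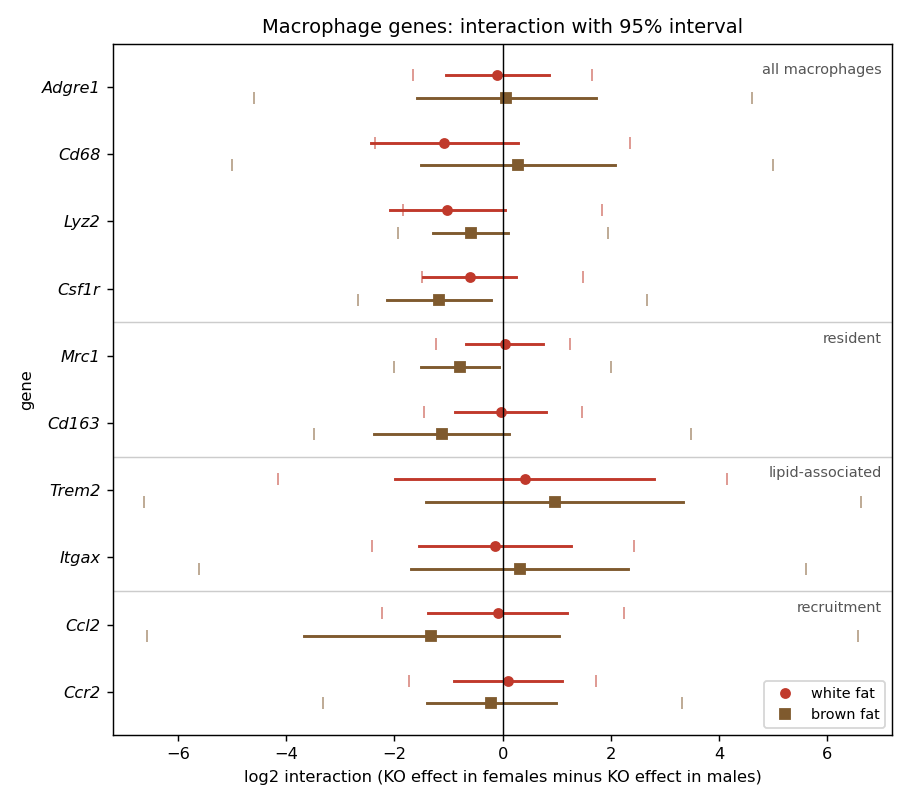
Log2 interaction (horizontal axis, KO effect in females minus KO effect in males) of the 10 macrophage genes, grouped by role down the page, with circles for white fat, squares for brown fat, bars for 95% intervals and small ticks at the size that would have passed an adjusted p of 0.05. All 10 white fat bars cross 0, and in brown fat the bars of Csf1r and Mrc1 lie below 0 without any estimate reaching its tick.

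Wider lists of macrophage genes were read in the same table to place the 10. In white fat 4.75% of all genes passed and 55.9% lay above 0. Of 18 further general macrophage genes, 1 passed, a count near that share, and 13 lay below 0, with a median of -0.41. That gene was Aif1, which encodes the actin-binding protein IBA1, lower in the interaction at -2.23 ± 0.57 (limma adjusted p = 0.0438) per the authors' deposited table. The fractalkine receptor gene Cx3cr1 was at -2.53 ± 0.70 (limma adjusted p = 0.0536) per the authors' deposited table. Spi1, the lineage transcription factor PU.1, was at -1.41 ± 0.50 (limma adjusted p = 0.110) and Tyrobp, the signalling adaptor of TREM2, at -1.35 ± 0.51 (limma adjusted p = 0.122) per the authors' deposited table. At an unadjusted p of 0.05, 4 of the 18 passed, which are the 4 genes just given, where 24.5% of all genes did. The list also holds Csf1 and Il34, which encode ligands of CSF1R and do not mark macrophages. Both, named after their values were seen, lay above 0, at 0.55 ± 0.36 and 0.05 ± 0.45 per the authors' deposited table (limma adjusted p = 0.355 and 0.953).

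The resident and lipid-associated lists had no passing gene in white fat, and their members lay on either side of 0. Of 14 further resident genes none passed, 9 lay below 0, the median was -0.21 in a range of -5.80 to 0.35, and 1 passed an unadjusted p of 0.05. The gene that did was Timd4, a receptor for phosphatidylserine on long-lived resident macrophages, at -5.80 ± 1.87 (limma adjusted p = 0.0833) per the authors' deposited table. Lyve1, a hyaluronan receptor of perivascular macrophages and of lymphatic vessels, was at -0.82 ± 0.42 (limma adjusted p = 0.242) per the authors' deposited table. Of 18 further lipid-associated genes none passed, 14 lay above 0 and the median was 0.20 in a range of -1.66 to 2.57, against a median of 0.13 for all genes. The gene with the smallest p was Plin2, a lipid droplet coat protein that adipocytes also make, at 0.92 ± 0.31 (limma adjusted p = 0.0916) per the authors' deposited table. Mmp12, the macrophage elastase, was at 2.57 ± 1.23 (limma adjusted p = 0.214) and Spp1, osteopontin, at 1.47 ± 0.78 (limma adjusted p = 0.257) per the authors' deposited table. Adipocytes also express Lpl, Cd36 and Plin2 of this list strongly, so it does not stand for macrophages alone.

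Some recruitment genes beyond Ccl2 and Ccr2 were lower in the interaction, and lymphocytes also use several of them. Of 13 measured genes in that list 3 passed, all below 0, where 3.69% of all genes passed below 0, and the median was -1.65. In all, 8 lay below 0 and 5 above, and at an unadjusted p of 0.05 there were 5 lower and 1 higher, where 24.5% of all genes passed. The higher one, named after its value was seen, was Ccl7, another ligand of CCR2, at 1.45 ± 0.62 (limma adjusted p = 0.17) per the authors' deposited table. Ccl5, a chemokine made by T cells, was at -5.79 ± 1.21 (limma adjusted p = 0.0357) per the authors' deposited table. Ly6c2, a marker of classical monocytes that memory T cells also carry, was at -5.57 ± 1.29 (limma adjusted p = 0.0365) per the authors' deposited table. Plac8, expressed in monocytes and in lymphocytes, was at -2.16 ± 0.48 (limma adjusted p = 0.0357) per the authors' deposited table. Inflammatory cytokines and sensors had a median of -1.56 with 9 of 11 below 0, and 0 passed, with 4 at an unadjusted p of 0.05 (Il1b, Tnf, Nlrp3 and Socs3). Il1b was at -2.46 ± 0.90 (limma adjusted p = 0.118) and Tnf at -4.01 ± 1.58 (limma adjusted p = 0.139) per the authors' deposited table. Mean log2 expression of Il1b and Tnf there was low, at 1.34 and 0.77, where the median of all genes was 3.93 and the lowest value -1.66.

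Lymphocyte markers lay far below 0 in the same table, and most dendritic cell markers lay below 0 too. Over all genes of white fat, 3.69% passed an adjusted p of 0.05 below 0 and 4.75% in either direction. Of the T cell list 8 of 10 passed and of the B cell list 5 of 9, all below 0, with medians of -8.00 and -8.28. Median levels of these lists in white fat were low, at 1.95 and 1.78, where the median of all genes was 3.93 and the lowest value -1.66. Whether interactions of this size at such levels are measured folds was not tested. Of 11 dendritic cell genes 2 passed and 10 lay below 0, with a median of -4.05. Those 2 were Ccr7, the homing receptor for lymph nodes, at -7.34 ± 1.74 (limma adjusted p = 0.0378) and Siglech, a marker of plasmacytoid dendritic cells, at -4.25 ± 1.09 (limma adjusted p = 0.0450) per the authors' deposited table. At an unadjusted p of 0.05, 8 of the 11 passed, all below 0, where 24.5% of all genes passed in either direction. Itgae was at -4.55 ± 1.28 and Clec9a at -2.87 ± 0.80 per the authors' deposited table (limma adjusted p = 0.0567 and 0.0559). The other genes, named after their values were seen, were above that unadjusted p. Zbtb46 was at -0.04 ± 0.37, Cd209a at 0.75 ± 0.69 and Batf3 at -1.28 ± 0.65 per the authors' deposited table (limma adjusted p = 0.953, 0.523 and 0.240). The macrophages that line lymph node sinuses were represented by 5 genes, all below 0, with a median of -3.85. One of them passed, Vcam1, an adhesion molecule that endothelium and stroma also make, at -2.07 ± 0.46 (limma adjusted p = 0.0357) per the authors' deposited table. Marco, a scavenger receptor of such macrophages, was at -7.47 ± 2.12 (limma adjusted p = 0.0575) per the authors' deposited table. Siglec1, named after its value was seen, had the smallest size of the 5, at -1.61 ± 1.11 (limma adjusted p = 0.386) per the authors' deposited table. All 5 measured neutrophil genes lay below 0, with a median of -3.26, and none passed, with 3 at an unadjusted p of 0.05 (S100a9, Cxcr2 and Camp). Median levels of the dendritic cell, lymph node sinus and neutrophil lists were also below that of all genes, at 2.44, 1.09 and -0.19. Adipocyte, fibroblast and endothelial lists had medians of 0.52, 0.51 and 0.57 with 0 genes passing in limma, and 2 genes of each at an unadjusted p of 0.05 (Pparg and Slc2a4, Pi16 and Dpp4, Cdh5 and Emcn), where 24.5% of all genes passed. The fibroblast pair had opposite signs, with Pi16 at 1.38 and Dpp4 at -1.24 per the authors' deposited table. The part of lymphocytes in the interactions of Aif1, Timd4 and the recruitment genes was not tested. Nor was their part in those of the dendritic cell genes, Ccr7 among them, or of the lymph node sinus genes. The summed level of the lymphocyte markers in each group was not analysed here.

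**Figure D3:**
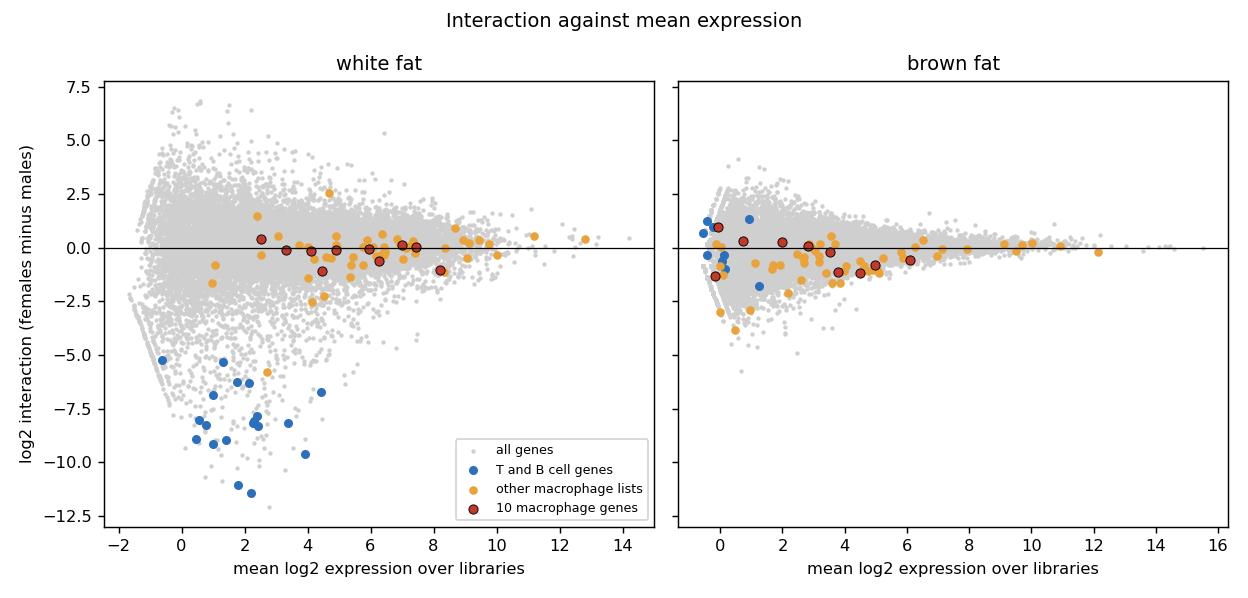
Log2 interaction (vertical axis, females minus males) against mean log2 expression over libraries (horizontal axis) in white fat (left) and brown fat (right), with grey points for all genes, blue for T and B cell genes, orange for the other macrophage lists and red for the 10 macrophage genes. In white fat the red points lie between -1.08 and 0.40, while the medians of the T and B cell lists are -8.00 and -8.28.

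In brown fat the macrophage genes did not pass either. None of the 10 passed an adjusted p of 0.05 in the authors' limma test, where 0.013% of all genes did, which was 2 genes, Tmem45b and Ntrk3, named after their values were seen. At an unadjusted p of 0.05, 2 of 10 members passed, against 6.51% of all genes. The median interaction of the 10 was -0.40, with 6 below 0 and 4 above, and the median of all genes was 0.01. The 2 members were Csf1r, at -1.18 ± 0.47 (limma adjusted p = 0.690), and Mrc1, at -0.79 ± 0.35 (limma adjusted p = 0.745) per the authors' deposited table for brown fat. Cd163 was at -1.13 ± 0.61 (limma adjusted p = 0.799) and Lyz2 at -0.59 ± 0.34 (limma adjusted p = 0.803) per the authors' deposited table for brown fat. These 4 had the smallest p-values of the members there.

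The other 6 members had errors of 0.59 to 1.17 in brown fat. Adgre1 was at 0.07 ± 0.81 and Cd68 at 0.28 ± 0.88 in the authors' deposited table for brown fat, with adjusted p-values of 0.992 and 0.980 from limma. The lipid-associated pair lay above 0, with Trem2 at 0.96 ± 1.17 (limma adjusted p = 0.935) and Itgax at 0.31 ± 0.99 (limma adjusted p = 0.980) per the authors' deposited table for brown fat. Ccl2 was at -1.32 ± 1.16 (limma adjusted p = 0.897) and Ccr2 at -0.21 ± 0.59 (limma adjusted p = 0.980) per the authors' deposited table for brown fat. The median was -0.96 for the resident pair and 0.64 for the lipid-associated pair. Both resident estimates fall inside the intervals of Trem2 (-1.41 to 3.33) and of Itgax (-1.70 to 2.32), and the difference between the pairs was not tested.

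Passing in brown fat took a large effect. At the smallest t-statistic of a passing gene, 5.67, the interaction of a member would be 1.94 (Lyz2) to 6.62 (Trem2) in size. As only 2 genes passed, a somewhat smaller size could also have passed, so these sizes are upper limits of what was needed. No member had an interval within 1 log2 unit of 0, and the intervals of 10 of 10 included -1.

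The wider macrophage lists in brown fat leaned below 0 with no gene passing in limma. Of 18 general macrophage genes 15 lay below 0, with a median of -0.75, and 3 passed an unadjusted p of 0.05. Those 3, named after their values were seen, were the complement genes C1qa and C1qc and the scavenger receptor gene Msr1. C1qa was at -1.07 ± 0.42, C1qc at -1.11 ± 0.49 and Msr1 at -2.13 ± 0.90 per the authors' deposited table for brown fat (limma adjusted p = 0.690, 0.745 and 0.712). In white fat C1qa and C1qc were at -0.19 ± 0.35 and -0.38 ± 0.42 per the authors' deposited table. Of 14 resident genes 10 lay below 0, with a median of -0.66, and 5 passed an unadjusted p of 0.05, where 6.51% of all genes did. They were F13a1, Cd209g, Pf4, Retnla (these 4 named after their values were seen) and Clec10a, all below 0. F13a1, a coagulation factor chain of resident macrophages, was at -1.18 ± 0.40 and Retnla, a secreted protein induced by type 2 cytokines, at -0.98 ± 0.40 per the authors' deposited table for brown fat (limma adjusted p = 0.624 and 0.690). Clec10a, a lectin of resident macrophages and dendritic cells, was at -1.66 ± 0.53 (limma adjusted p = 0.551) per the authors' deposited table for brown fat. Lyve1 lay on the other side, at 0.53 ± 0.54 (limma adjusted p = 0.910) per the authors' deposited table for brown fat. Of 18 lipid-associated genes 12 lay below 0, with a median of -0.15, and 2 passed an unadjusted p of 0.05, Spp1 and, named after its value was seen, Atp6v0d2. The table listed 4 of 10 T cell and 5 of 9 B cell genes, at median levels of -0.15 and 0.04, and medians of the interaction of 0.18 and -0.32. Fibroblast and progenitor genes lay below 0 in 6 of 7 cases, with a median of -0.80 and 3 at an unadjusted p of 0.05 (Dpt, Col1a1 and Col3a1, the first 2 named after their values were seen), while adipocyte genes lay above 0 in 6 of 8, with a median of 0.24 and 3 at an unadjusted p of 0.05, all higher (Lipe and, named after their values were seen, Plin1 and Cidec). Plin1, a lipid droplet coat protein, was at 0.40 ± 0.10 and Lipe, hormone-sensitive lipase, at 0.40 ± 0.10 per the authors' deposited table for brown fat (limma adjusted p = 0.249 and 0.329). The part of these cell types in the values of the macrophage lists was not tested.

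**Figure D4:**
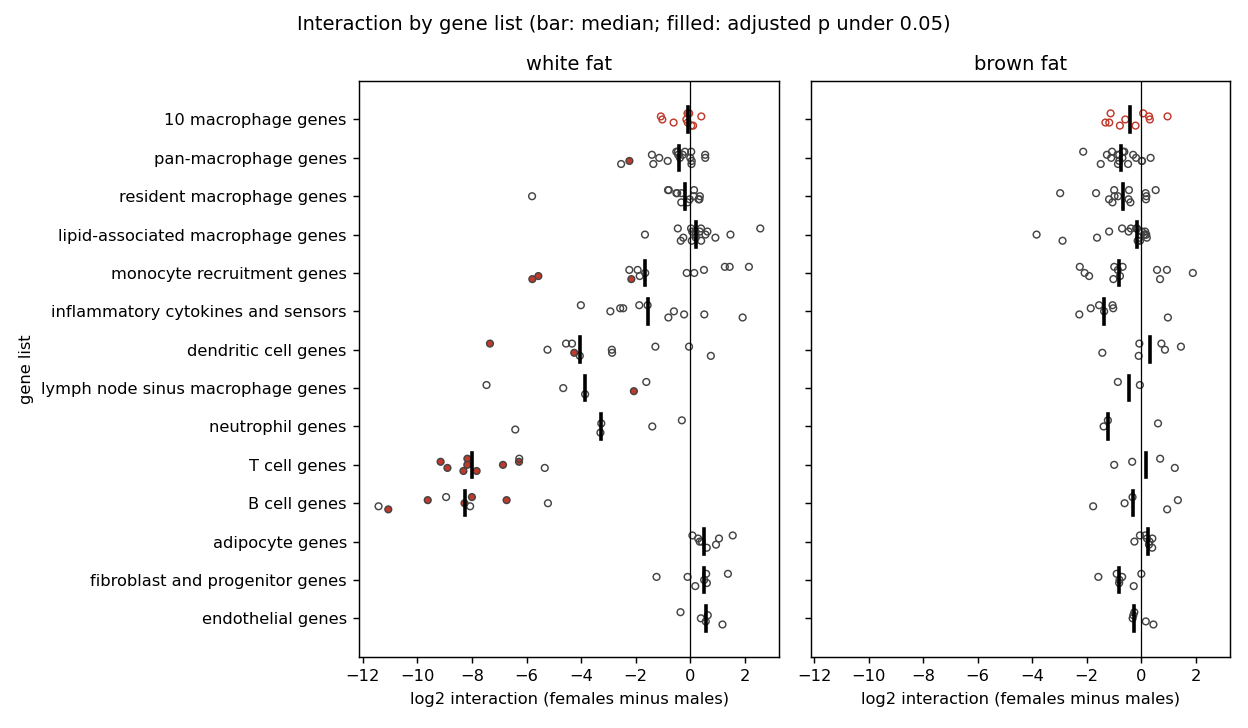
Log2 interaction (horizontal axis, females minus males, same scale in white fat on the left and brown fat on the right) of each measured gene by gene list (rows), with bars at the median of each list and filled points for an adjusted p under 0.05. The 10 macrophage genes in the top row have no filled point in either depot, and in white fat the T and B cell lists hold 8 and 5.

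Whether the interaction differed between the depots was tested gene by gene over the 14502 genes in both tables, taking the tables as independent. The labels do not say whether the depots came from the same mice. None of the 10 members passed an adjusted p of 0.05, where 0.248% of genes did, and 0 of 10 passed an unadjusted p of 0.05, where 15.7% did. Mrc1 had the smallest p of the members, with a difference of 0.82 ± 0.48 in white minus brown fat, a 95% interval of -0.15 to 1.80 and an adjusted p of 0.410 over all shared genes, from the deposited limma fits. For Cd163 the difference was 1.09 ± 0.73 (interval -0.38 to 2.55, adjusted p = 0.476 from the deposited limma fits). The general genes had differences of 0.57 ± 0.62 for Csf1r, -0.17 ± 0.92 for Adgre1, -0.44 ± 0.60 for Lyz2 and -1.36 ± 1.08 for Cd68. Trem2 was at -0.56 ± 1.61, Itgax at -0.45 ± 1.18, Ccl2 at 1.22 ± 1.30 and Ccr2 at 0.32 ± 0.75. The 95% intervals of all 10 differences included 0, and that of Trem2, the widest, ran from -3.81 to 2.70.

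The lipid-associated gene Spp1, which had the smallest p of its wider list for the difference between depots, had estimates of opposite sign in them. Beside 1.47 in white fat it was at -3.84 ± 1.13 in brown fat (limma adjusted p = 0.459) per the authors' deposited table. The difference in white minus brown fat was 5.31 ± 1.37 with an interval of 2.55 to 8.08 and an adjusted p of 0.0663 from the deposited limma fits, which did not pass. Its mean log2 expression was 2.41 in white fat and 0.47 in brown fat in the authors' deposited tables. The lowest value of any gene in brown fat was -0.55, so the brown fat estimate of Spp1 comes from a low level.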

How the data were processed

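RNA of 12 labelled white fat libraries was measured by sequencing. Per the submitters' processing notes, featureCounts and limma were used on GRCm39; for their versions, the aligner, the annotation and strand, no source used here gives an entry. The authors deposited, for each depot, a limma comparison with log2 fold changes (here the log2 interaction), mean log2 expression, the t-statistic (a score) and p-values. A Benjamini-Hochberg adjustment over each table gave back the deposited adjusted p. Columns of library values, 48 over 4 tables, have names that match no label and were used in no step, so the limma fits planned on library values, the levels of single libraries and their covariation were not computed, and the genes most like a member were not named.

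Standard errors are the interaction over t, and intervals use the degrees of freedom that link the deposited t and p, 13.4 in white fat and 33.9 in brown fat. Depots were compared by the difference over their joint standard error (Welch-Satterthwaite degrees of freedom), adjusted over 14502 genes. The step was run on simulated data in which the depots were drawn as independent, so that run could not check whether they are. Members, 13 wider lists and tests were chosen with earlier results of these data known. One gene of the recruitment list as first written is not reported here and was left out of the list's values. All members are named, and from each list those of the up to 4 genes with the smallest p in white fat that the text needs, plus genes that passed outside the lymphocyte lists; Itgam, Lyz1 and Hmgxb3 were looked up for their relation to a member, and genes named after their values were seen are marked. Alternatives were a threshold of 0.10, protein-coding genes, a minimum level of log2 of 10, centring on the median, a minimum size of 1 and a normal approximation. The tools were scipy 1.17.1, numpy 2.4.6, matplotlib 3.10.9, pandas 2.3.3 and Python 3.11.15.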

Additional observations from a re-analysis of the deposited data

How the results depend on the processing

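The count of macrophage genes passing stayed at 0 in white fat, brown fat and the difference between depots under the 12 alternatives run for them. A minimum level of log2 of 10 left 8 members in white fat and 5 in brown fat. Of 113 repeats of a single member's value, 111 kept their sign and their side of the threshold. The 2 that changed sign came from centring on the median of all genes, with Mrc1 at -0.0922 and Ccr2 at -0.0253 in white fat, and of the other named genes Pi16 went to -0.0122 in brown fat. Over all genes, a threshold of 0.10 gave 2027 passing genes in white fat, against 795, and the difference between depots gave 58 genes after centring and 341 with a normal approximation, against 36. Centring in white fat gave 852 genes below 0 and 108 above (88.8% below), against 618 and 177 (77.7%). Cx3cr1 passed in white fat after centring (-2.66, adjusted p = 0.0430 from limma's errors), as did Clec9a, Itgae and Cxcr2. No paired analysis was possible because no library column has a name that matches a label, and for the same reason leaving out a replicate, another pseudocount, the replicate block and a fit of the library values were not run. Depth is unknown, and the errors limit what Trem2, Itgax and Ccl2 can show.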
